A study of Rattus norvegicus with 12 samples.

Results

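Endothelial cells line the blood vessels of the brain, and mural cells, the pericytes of capillaries and the smooth muscle cells of larger vessels, wrap around them. The genes described here are 36 genes known from these cells, chosen by name with earlier results of these data known. Of them 34 were measured in rat forebrain after exposure to a new environment, out of 14217 genes measured in all. A gene was taken as measured when a probe set of the array carried its symbol and no other, and where several did, the brightest of them by its mean over all 12 arrays was used. Of the 34 genes, 23 are endothelial, 6 belong to pericytes, 4 to smooth muscle, and Vegfa, a ligand that acts on endothelial cells but is made mainly outside the vessel wall, was counted apart. The endothelial genes Cdh5 and Cd34 were not analysed here.

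Forebrain RNA came from 12 male Long Evans rats that were 6 weeks old and had lived alone for several days. The control group was 6 rats left in a standard laboratory cage, and the exposed group was 6 rats placed for 3 hours in surroundings new to them that held objects differing in shape and colour. Each rat was measured on 1 Affymetrix array, and no transgene, strain difference or drug is named in the labels. Values are deposited probe set intensities in arbitrary linear units. Changes are exposed minus control on the log2 scale with the standard error (SE) of the limma fit, 6 animals per group, and a gene passed at a Benjamini-Hochberg adjusted p under 0.05 over all 31042 probe sets. The p-values measure the spread between animals. Array medians lay between 235 and 245, and all 16 neuron markers examined stood on every array above the lowest level counted as signal, an intensity of 53.8 (the floor). The whole forebrain was extracted, so that fewer vessel cells and less RNA per vessel cell cannot be told apart. Nor do the values show which cells a transcript came from.

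The wall of brain vessels forms the blood-brain barrier. Endothelial cells are sealed by tight junctions, carry nutrients in and drugs out through transporters, and depend on growth factor receptors of the VEGF, angiopoietin and TGF-beta families. Pericytes are recruited through the PDGF receptor and maintain the barrier, and smooth muscle cells set vessel width, partly in response to nitric oxide from the endothelium.

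After the new environment 3 endothelial genes passed the test and no pericyte or smooth muscle gene did. Tmem100, a membrane protein gene induced by the endothelial receptor ALK1, rose 1.93-fold, and Nos3, the endothelial nitric oxide synthase, rose 1.44-fold. Slco1a4, an organic anion transporter of the blood-brain barrier, fell 1.22-fold. In limma 2 of 23 endothelial genes were higher and 1 lower (13% passed), and 0 of 10 mural genes passed. Over all 14217 genes 3.46% passed, 2.62% higher and 0.844% lower, and over all probe sets 2.56% passed. Of the 12674 genes above the floor on at least 1 array, as every member was, 3.88% passed. In the same test 8 of 23 endothelial and 4 of 10 mural genes had an unadjusted p under 0.05. So did 2258 genes in all, 15.9% of the 14217 and all of them among those 12674. The 3 genes that passed were also the members whose groups did not overlap, 3 of 34, where 3.38% of all genes had groups without overlap (2.5% above and 0.879% below every control). The plot of all 34 changes shows the endothelial genes spread to both sides and the mural genes near or below 0.

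**Figure D1:**
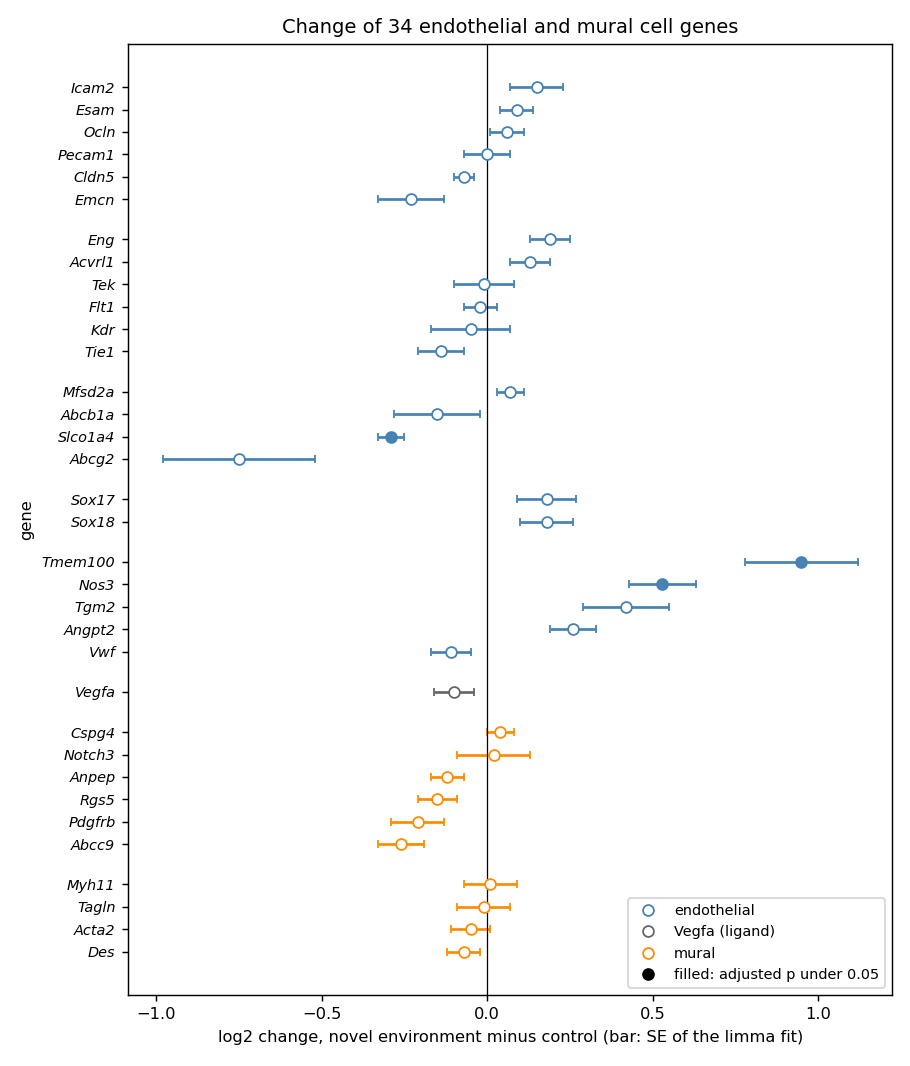
Log2 change (exposed minus control) of 34 genes with the SE of the limma fit, grouped by role, with endothelial genes in blue, Vegfa in grey and mural genes in orange. Filled points passed at an adjusted p under 0.05, and these are Tmem100 (0.95), Nos3 (0.53) and Slco1a4 (-0.29).

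Of the 3 genes that passed, Tmem100 had no promoter in the reference used. The upstream stretches of the other 2, whose transcript levels moved in opposite directions, are shown. They are the 250 bases before the start of the gene in RefSeq's rat assembly GRCr8, read 5′ to 3′ along the gene, at chr4:176495847-176496096 (minus strand) for Slco1a4 and chr4:11706582-11706831 (minus strand) for Nos3.
Slco1a4: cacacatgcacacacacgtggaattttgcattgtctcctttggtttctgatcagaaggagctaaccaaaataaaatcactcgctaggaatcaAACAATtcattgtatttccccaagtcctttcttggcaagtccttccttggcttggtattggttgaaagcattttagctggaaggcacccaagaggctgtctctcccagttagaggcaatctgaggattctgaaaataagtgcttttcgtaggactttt
Nos3: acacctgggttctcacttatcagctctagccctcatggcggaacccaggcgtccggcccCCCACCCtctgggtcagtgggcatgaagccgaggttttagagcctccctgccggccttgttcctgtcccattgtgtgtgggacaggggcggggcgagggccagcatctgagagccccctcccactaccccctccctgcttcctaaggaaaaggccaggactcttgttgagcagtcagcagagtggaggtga
Capitals mark the matches to 7 motifs searched on both strands. The motifs were CCCACCC (Klf factors), TGACGTCA (CREB), GGCGCC (BMP-activated Smad factors), AACAAT (Sox factors), CCGGAAG (Ets factors), AGAACA (a steroid receptor motif) and the CArG box of serum response factor. The Slco1a4 stretch held AACAAT, found in 10.3% of 33469 promoters of that length, and the Nos3 stretch held CCCACCC, found in 14.5%. Among the 19 measured members with a promoter in the table, CCCACCC was found in 6 and AACAAT in 3. Each stretch held 1 match, and a match is a run of letters, not a shown binding site. The GC content was 42.4% for Slco1a4 and 62.4% for Nos3, with a median of 51.2% over all promoters.

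Tmem100 had the largest increase among the members. Its intensity in control animals was lowest at 488, had a median of 679 and reached 819, and in exposed animals it was lowest at 1011, had a median of 1272 and reached 1720. All 6 exposed animals stood above every control animal, and exposed animal 1 was the highest. The change was 0.95 ± 0.17 (SE), from a mean of 660 ± 139 (SD, n = 6) to 1273 ± 259 (SD, n = 6), with adjusted p = 0.0117 in limma, and its 95% interval ran from 0.58 to 1.32. Among 14217 genes the increase ranked 19. A dimmer Tmem100 probe set, with a mean log2 intensity of 6.38, had a change of 0.13 ± 0.10 (adjusted p = 0.702 in limma), and with the mean of the 2 probe sets the change was 0.54 (adjusted p = 0.00282). Among animals 1 to 3 of each group the change was 1.01 and among animals 4 to 6 it was 0.89. What these numbers stand for is not given in the labels.

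Nos3 was dim, with intensities of 66 to 76 (median 70) in control animals and 86 to 121 (median 98) in exposed animals. The groups did not overlap, and exposed animals 1, 2 and 5 were well above the other three. The change was 0.53 ± 0.10 (SE), from 70.1 ± 3.87 (SD, n = 6) to 102 ± 17.0 (SD, n = 6), with adjusted p = 0.0172 in limma and a 95% interval from 0.31 to 0.75. The call was lost in a fit without 3 animals, control 4 and exposed 3 and 5 (change 0.52, adjusted p = 0.0731). With the floor raised to the 40th percentile all 12 animals were at the floor, and the gene gave no value.

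Slco1a4 takes up bile salts, steroid conjugates and drugs at the luminal and abluminal faces of the endothelium. Its intensity was 2145 to 2364 in control animals (median 2219) and 1730 to 2059 in exposed animals (median 1798). All 6 exposed animals stood below every control, with exposed animal 3 closest to them. The change was -0.29 ± 0.04 (SE; adjusted p = 0.00364 in limma), from 2232 ± 77 (SD, n = 6) to 1833 ± 120 (SD, n = 6). A second probe set gave -0.31 ± 0.06 (adjusted p = 0.0291), again with 6 of 6 animals below every control, and there exposed animal 3 was the lowest. The call was kept in all 25 alternative settings, with changes from -0.35 to -0.27.

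Other transporters of the barrier were measured through 3 members, and none of them passed. Abcg2, the breast cancer resistance protein that pumps drugs back into blood, had intensities of 339 to 637 in control animals (median 566) and 215 to 479 in exposed animals (median 278). The groups overlapped through controls 5 and 6, at 457 and 339, and exposed animals 2 and 5, at 479 and 423. The change of -0.75 ± 0.23 (adjusted p = 0.136 in limma) was the most negative of all 14217 genes. Its 95% interval ran from -1.25 to -0.25, and it passed in 1 of 25 alternatives, that without the 40% dimmest probe sets (adjusted p = 0.0435). Abcb1a, the P-glycoprotein pump, had a change of -0.15 ± 0.13, with exposed animal 3 at 322 and the other 5 exposed animals between 388 and 548. A second Abcb1a probe set gave -0.21 ± 0.10 (adjusted p = 0.436 in limma), with 3 of 6 exposed animals below every control. The array of exposed animal 3 also had the largest excess of 3 prime over 5 prime signal in its control transcripts, which grows as RNA degrades. This excess was 0.59 on the log2 scale, against 0.33 to 0.44 in control animals and 0.39 to 0.44 in the other exposed animals. With this measure as a covariate the change of the brightest Abcb1a probe set was 0.01. Without exposed animal 3 it was -0.06, and the cause was not tested. Mfsd2a, a lipid transporter that holds down vesicle traffic across the endothelium, had a change of 0.07 ± 0.04 and a 95% interval from -0.01 to 0.14.

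**Figure D2:**
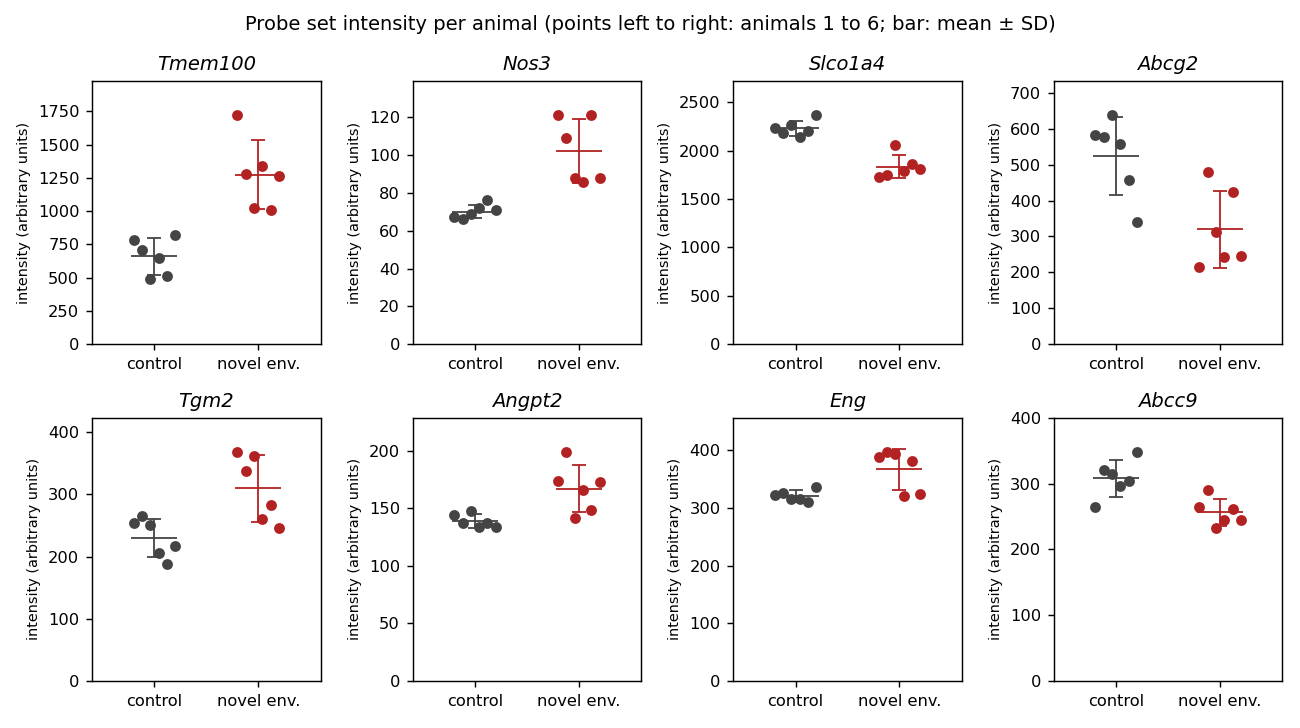
Intensity in arbitrary units of 8 genes in each animal, control in grey and exposed in red, with mean ± SD (6 animals per group). Points run from animal 1 to animal 6 in each group. The groups are apart for Tmem100, Nos3 and Slco1a4 and overlap for Abcg2, Tgm2, Angpt2, Eng and Abcc9.

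Junction and adhesion genes of the endothelium gave no call, 0 of 6 in limma (1 with an unadjusted p under 0.05), and their median change was 0.03. Cldn5, the main claudin of the barrier, had intensities of 2708 to 3057 in control animals and 2553 to 2832 in exposed animals. The groups overlapped, with 2 of 6 exposed animals below every control. Its change was -0.07 ± 0.03, with a 95% interval from -0.15 to 0.00. Ocln, the tight junction protein occludin, had a change of 0.06 ± 0.05 with a 95% interval from -0.05 to 0.17, and Pecam1, an adhesion molecule at endothelial contacts, one of -0.00 ± 0.07 with an interval from -0.15 to 0.15. The adhesion genes Esam (0.09 ± 0.05) and Icam2 (0.15 ± 0.08) had positive values. Emcn, a sialomucin of capillary and venous endothelium, had the most negative change of this group, -0.23 ± 0.10 (adjusted p = 0.363 in limma), with control 6 at 533 and all other animals between 315 and 434. Without control 6 its change was -0.15.

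Among the 6 receptor genes 0 passed in limma (1 had an unadjusted p under 0.05), and their median change was -0.02. Kdr and Flt1, the receptors of VEGF, had changes of -0.05 ± 0.12 and -0.02 ± 0.05. A dimmer Flt1 probe set gave -0.24 ± 0.08 (adjusted p = 0.167), with 5 of 6 exposed animals below every control. Tek, the angiopoietin receptor, had a change of -0.01 ± 0.09, and its relative Tie1 one of -0.14 ± 0.07. Eng and Acvrl1 code for endoglin and ALK1, which bind BMP9 together. Eng had intensities of 310 to 337 in control animals and 320 to 397 in exposed animals, with animals 1, 2, 3 and 5 above every control. Its change was 0.19 ± 0.06 (adjusted p = 0.156), and that of Acvrl1 was 0.13 ± 0.06 (adjusted p = 0.418).

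Sox17 and Sox18, transcription factors of arterial and vessel development, each had a change of 0.18, with SE of 0.09 and 0.08, and neither passed (adjusted p = 0.451 and 0.381 in limma). For Sox18 the change was 0.35 within animals 1 to 3 and 0.01 within animals 4 to 6, a difference that was not tested.

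The endothelial products Tgm2 and Angpt2 lay above most controls without passing. Tgm2, the enzyme tissue transglutaminase, had intensities of 188 to 265 in control animals (median 234) and 246 to 368 in exposed animals (median 311). Of the exposed animals 4 stood above every control. The change was 0.42 ± 0.13 (adjusted p = 0.133 in limma), and over 25 alternatives, 3 of which passed, the adjusted p ran from 0.00147, with the number sets 1 to 3 and 4 to 6 as a term, to 0.393, with the RNA quality covariate (change 0.26). A second Tgm2 probe set gave 0.20 ± 0.10 (adjusted p = 0.451). Angpt2, a ligand of Tek released by activated endothelium, had intensities of 134 to 148 in control animals and 142 to 199 in exposed animals, with 5 of 6 above every control. Its change was 0.26 ± 0.07 (adjusted p = 0.109), and it passed without exposed animal 3 (change 0.30, adjusted p = 0.0427). Vwf, the clotting factor carrier stored in endothelium, had a change of -0.11 ± 0.06, with 5 of 6 exposed animals below every control and exposed animal 3, at 571, above every control.

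Vegfa, the ligand of Kdr and Flt1, had intensities of 1194 to 1349 in control animals and 1010 to 1320 in exposed animals. The groups overlapped, and the change of -0.10 ± 0.06 did not pass (adjusted p = 0.585 in limma). A second probe set gave -0.11 ± 0.06. Within animals 1 to 3 the change was 0.01 and within animals 4 to 6 it was -0.21.

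Pericyte genes had a median change of -0.13, and 0 of 6 passed in limma. At an unadjusted p under 0.05 were 4 of 6, all of them lower, against 1010 of all 14217 genes that were lower at such a p. Abcc9, the sulphonylurea receptor subunit of the pericyte potassium channel, had intensities of 265 to 348 in control animals (median 309) and 233 to 291 in exposed animals (median 254). Below the lowest control, animal 1 of that group, stood 5 of the 6 exposed animals. The change was -0.26 ± 0.07 (adjusted p = 0.0868), and the gene passed in 3 of 25 alternatives, among them without control 1 (change -0.30, adjusted p = 0.0373). Pdgfrb, the receptor through which endothelium recruits pericytes, had a change of -0.21 ± 0.08 (adjusted p = 0.286), while 2 dimmer probe sets gave -0.01 and 0.00. Rgs5, a brake on G protein signalling, had a change of -0.15 ± 0.06 (adjusted p = 0.333), and Anpep, the surface peptidase CD13, one of -0.12 ± 0.05 (adjusted p = 0.370), with 5 of 6 exposed animals below every control. Notch3, the receptor mutated in CADASIL, was close to the floor, and its change was 0.02 ± 0.11. Cspg4, the proteoglycan NG2, had a change of 0.04 ± 0.04. It is shared with oligodendrocyte precursors, of whose 6 other measured markers 0 passed in limma (1 had an unadjusted p under 0.05), with a median change of -0.07, and their part in its value was not tested.

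Smooth muscle genes had a median change of -0.03 and 0 of 4 passed in limma, with 0 at an unadjusted p under 0.05. Acta2, the smooth muscle actin, had intensities of 392 to 490 in control animals and 403 to 459 in exposed animals, and the exposed animals lay within the control range. Its change was -0.05 ± 0.06, with a 95% interval from -0.17 to 0.08. The contractile genes Tagln (-0.01 ± 0.08) and Myh11 (0.01 ± 0.08) and the filament gene Des (-0.07 ± 0.05) did not pass either. The 95% interval of Tagln ran from -0.20 to 0.18.

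Endothelial and mural genes were set side by side by their medians and by animal. No test was made, since the genes were chosen with earlier results of these data known. The median change was 0.06 over 23 endothelial genes and -0.06 over 10 mural genes, and 0.00 over all genes. A negative change was seen for 11 of 23 endothelial and 7 of 10 mural genes, against 53.6% of the 12674 genes above the floor on at least 1 array. The mean over endothelial genes, relative to the control mean, was -0.06 to 0.04 in control animals and -0.03 to 0.16 in exposed animals, with exposed animals 1 and 2 highest. Over pericyte genes the mean was -0.06 to 0.06 in control animals and -0.20 to -0.03 in exposed animals, with exposed animals 4 and 6 lowest. Both classes overlapped between the groups. Of the 23 endothelial genes 17 had their highest animal in the exposed group and 9 their lowest. Of the 10 mural genes 2 had their highest and 6 their lowest there. The share over all genes was not computed for these counts, and they were not tested.

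**Figure D3:**
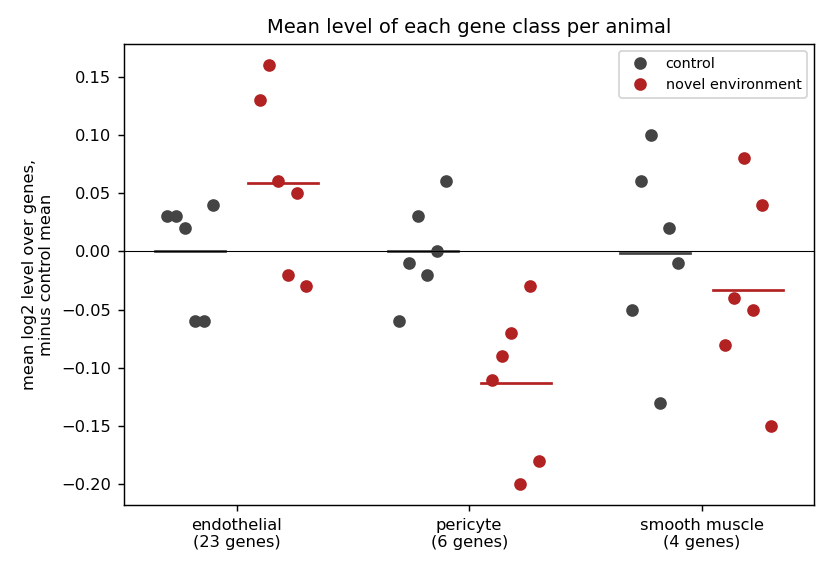
Mean log2 level over the genes of each class in each animal, minus the control mean, for 23 endothelial, 6 pericyte and 4 smooth muscle genes, with control in grey, exposed in red and a line at the group mean. Exposed animals reach 0.16 for endothelial genes and -0.20 for pericyte genes, and the groups overlap in every class.

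Markers of meninges and fibroblasts, cells that lie next to larger vessels, had a negative median change like that of the pericyte genes. In limma 0 of 17 passed (2 had an unadjusted p under 0.05, both lower), 15 had a negative change and 2 a positive one, with a median of -0.09. None was at the floor on all arrays. Their summed intensity was 28680 to 32920 in control animals and 26391 to 30947 in exposed animals, and their part in the pericyte values was not tested. Blood cell markers were summed at 12967 to 18057 in control animals and 13708 to 16145 in exposed animals, and 0 of 6 passed in limma, with 0 at an unadjusted p under 0.05 and a median change of -0.08. Of the markers of neurons, astrocytes, oligodendrocytes, microglia and choroid plexus 0 of 16, 0 of 13, 0 of 11, 0 of 15 and 0 of 11 passed. At an unadjusted p under 0.05 were 4, 1, 2, 1 and 1 of them, and the median changes of the 5 lists lay between -0.01 and 0.00.

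Other genes of vessels and targets of hypoxia were counted in 8 lists. Per list 4.35% to 14.3% passed, against 3.46% of all genes and 3.88% of the 12674 above the floor on at least 1 array. With the RNA quality covariate 9 of the 20 calls in these lists were lost. Of 21 genes of endothelial activation, clotting control and leukocyte adhesion 3 rose and 0 fell in limma. Klf4 and Klf2 are transcription factors that blood flow induces in endothelium, and Thbd codes for thrombomodulin, an anticoagulant protein of the endothelial surface. RNA of the whole forebrain does not show in which cells these genes changed. Klf4 had intensities of 231 to 349 in control animals and 454 to 622 in exposed animals and rose by 0.91 ± 0.11 (adjusted p = 0.00137). Klf2 ran from 431 to 775 in control animals and from 907 to 1070 in exposed animals and rose by 0.74 ± 0.14 (adjusted p = 0.0204). Within animals 1 to 3 its change was 0.99 and within animals 4 to 6 it was 0.49. The Klf2 call was lost in 4 of 25 alternatives. These were without control 3 or exposed animal 1 (adjusted p up to 0.0532 in limma), and without control 4 and exposed 3 and 5 (0.0937). The last was with the animal numbers as a block (0.0729), where Klf4 lost its call too (0.0569). Thbd ran from 216 to 251 in control animals and from 303 to 392 in exposed animals and rose by 0.53 ± 0.07 (adjusted p = 0.00191). For these 3 genes, named because they passed, all exposed animals stood above every control, as they did for 2.5% of all genes. At the floor on all arrays were 7 genes of this list, whose median change was 0.00.

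Of 46 partners in angiogenic signalling 2 rose and 0 fell, a share of 4.35% that was near that of all genes. Hes1, a target of Notch, had intensities of 224 to 267 in control animals and 307 to 352 in exposed animals and rose by 0.39 ± 0.05 (adjusted p = 0.00179 in limma). Id1, a target of BMP receptors such as ALK1, rose by 0.34 ± 0.08 (adjusted p = 0.0386), from 839 to 1091 in control animals to 1119 to 1414 in exposed animals. Within animals 1 to 3 the change of Id1 was 0.55 and within animals 4 to 6 it was 0.14. The call of Id1 did not hold in 8 of the 12 fits that each omit 1 animal, those without control 1, 2, 3 or 4 or exposed animal 1, 2, 3 or 6 (adjusted p up to 0.0848). It was also lost with the RNA quality covariate (0.0828 in limma) and with the animal numbers as a block (0.217). Without control 4 and exposed 3 and 5 it was lost too (0.116). Hes1 and Id1 are also made by glia and other cells of the forebrain.

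Of 32 other endothelial genes 2 rose and 1 fell. Erg, an Ets transcription factor that keeps endothelial identity, fell by 0.28 on the log2 scale (SE 0.05, adjusted p = 0.0103 in limma), with intensities of 226 to 253 in control animals and 177 to 212 in exposed animals. Podxl, the sialomucin podocalyxin, rose by 0.32 ± 0.07 (adjusted p = 0.0350), and Nherf2, a scaffold protein, by 0.16 ± 0.04 (adjusted p = 0.0444), and each kept its call in 2 of the 12 fits with 1 animal left out. Of 24 other barrier transporter genes 1 rose and 2 fell. Slc22a8, the organic anion transporter OAT3, fell by 0.22 (SE 0.04, adjusted p = 0.0146), with intensities of 602 to 680 in control animals and 521 to 616 in exposed animals, and its call was lost with the RNA quality covariate (adjusted p = 0.0695). Slco2b1, a relative of Slco1a4, fell by 0.13 (SE 0.03, adjusted p = 0.0290). Lrp8, a lipoprotein and reelin receptor, rose by 0.12 ± 0.03 (adjusted p = 0.0350). Slco2b1 kept its call in 2 and Lrp8 in 4 of the 12 fits with 1 animal left out, the largest adjusted p being 0.0662 and 0.0832.

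Of 30 vasoactive mediators and receptors 3 rose and 1 fell. Ptgs2, the inducible cyclooxygenase of prostaglandin synthesis, which cortical neurons also make, rose 2.39-fold (adjusted p = 6.9e-06 in limma). Vipr1, a receptor of the vasodilator peptide VIP, rose by 0.51 ± 0.06 (adjusted p = 0.00101), and Ece1, which activates endothelin, by 0.24 ± 0.04 (adjusted p = 0.0160). The call of Ece1 was lost with the RNA quality covariate (adjusted p = 0.0652) and without control 4 and exposed 3 and 5 (adjusted p = 0.122). Gucy1a1, a subunit of the guanylate cyclase that nitric oxide activates, fell by 0.24 (SE 0.05, adjusted p = 0.0324), from 1906 to 2106 in control animals to 1554 to 1889 in exposed animals, and kept its call in 3 of the 12 fits with 1 animal left out. Of 39 other mural genes 1 rose and 1 fell, a share of 5.13% that was near that of all genes. Srf, the serum response factor of muscle and of active neurons, rose by 0.28 ± 0.04 (adjusted p = 0.00191). Mylk, the myosin light chain kinase, fell by 0.08 (SE 0.02, adjusted p = 0.0438), and kept its call in 2 of 12 such fits. Of 19 basement membrane genes 1 rose, the laminin subunit Lamc1, by 0.13 ± 0.03 (adjusted p = 0.0250), and it kept its call in 7 of 12 such fits. Of 23 hypoxia targets 2 rose and 0 fell, a share of 8.7% against 3.46% of all genes. The glycolytic regulator Pfkfb3 rose by 0.46 ± 0.06 (adjusted p = 0.00128) and the collagen hydroxylase subunit P4ha1 by 0.34 ± 0.05 (adjusted p = 0.00466). Vegfa, another target of hypoxia that was counted apart, did not pass, and a part of hypoxia in these values was not tested. When all probe sets of a gene were averaged, the changes were smaller for Erg (-0.14), Klf2 (0.36), Pfkfb3 (0.20) and Podxl (0.14), among others. They were larger for Nherf2 (0.28), Gucy1a1 (-0.35) and Slc22a8 (-0.27). In that setting 4 calls were lost, those of Podxl (adjusted p = 0.254 in limma), Slco2b1 (0.139), Mylk (0.136) and Lamc1 (0.359).

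**Figure D4:**
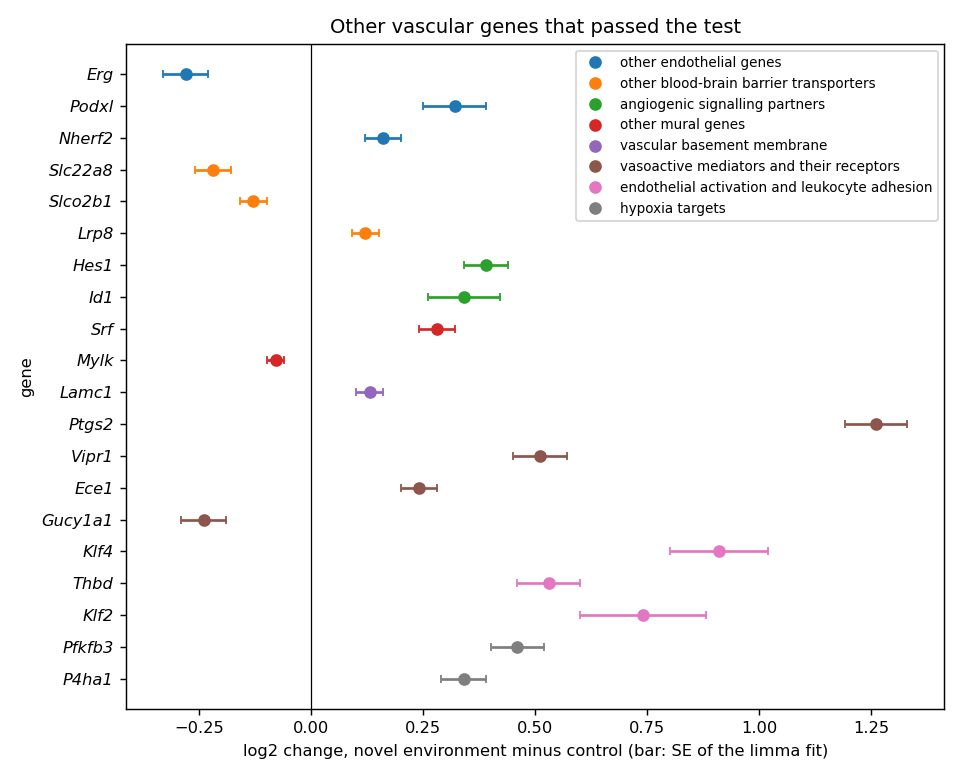
Log2 change (exposed minus control) with the SE of the limma fit of the 20 genes outside the 36 that passed, coloured by list. The largest change is that of Ptgs2 (1.26), followed by Klf4 (0.91) and Klf2 (0.74), and 5 genes are to the left of 0.

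Several of the 34 genes had more than 1 probe set. There were 13 such genes with 17 further probe sets, of which 4 were at the floor on all arrays. Of the other 13 probe sets 11 moved to the same side as the brightest one of their gene, and 2, of Icam2 and Pdgfrb, to the other side. Only the second Slco1a4 probe set passed among them in limma.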

How the data were processed

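Forebrain RNA of 12 rats was measured on 1 Affymetrix array each. The deposited values are probe set intensities on a linear scale, from 12.56 to 34828. The authors' background correction, summarisation and normalization are not given in the labels or file headers. Array log2 medians lay within 0.062 of each other, and as this was below 0.1 no further normalization was applied. Intensities under the 20th percentile (53.8) were set to it as a floor, all were transformed to log2, and 31042 probe sets, without the 57 array controls, were fitted with limma 3.58.1 in R 4.3.3 (group as the only term, eBayes with a trend, Benjamini-Hochberg), after the procedure was tested on simulated data. The number of arrays limits the precision.

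Symbols came from the platform annotation through Entrez IDs and promoters from a table drawn from RefSeq (GRCr8), in which 19 of the 34 genes were matched. All 36 genes are named, and from each of the 8 other vascular and hypoxia lists up to 4 genes that passed. Members, lists and tests were chosen with earlier results of these data known. Alternatives were quantile normalization, median centring, other floors and filters, eBayes without a trend, replicate block, number sets, RNA quality, other choices of probe sets, and leaving out animals. A filter that drops probe sets never above the floor was chosen after seeing the data.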

Additional observations from a re-analysis of the deposited data

Results flagged for a closer look

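In 2 of 108 groups of 6 animals tested, 1 animal stood apart from the other 5 by Dixon's test, and chance gives such a flag in about 1 in 20 groups. Exposed animal 5 had the highest Slc22a8 intensity of its group, 616 against 521 to 553 in the others, a gap of 0.65 of the whole log2 range. The same animal had the lowest Vipr1 intensity of its group, 574 against 667 to 695, a gap of 0.78.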

How the results depend on the processing

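The number of endothelial genes that passed was 3, and over 25 alternatives it ran from 2 to 4. The number of mural genes that passed was 0, and it was 1, Abcc9, without the 40% dimmest probe sets and when probe sets of a gene were averaged, and 0 to 1 with 1 animal left out (1 without control 1). The median change was 0.06 for endothelial genes, -0.00 with the floor at the 40th percentile and -0.00 without the 40% dimmest probe sets, and 0.03 to 0.07 with 1 animal left out. For mural genes it was -0.06 and ran from -0.12 to -0.03. Tmem100 and Slco1a4 kept their calls in all 25 alternatives and Nos3 in 21 of the 23 that gave it a value. With the RNA quality covariate the changes of Abcb1a (0.01), Myh11 (-0.09) and Notch3 (-0.12) turned sign, and without control 4 and exposed 3 and 5 those of Myh11 (-0.12) and Notch3 (-0.10) did, where none had passed and the cause was not tested. With 1 animal left out, changes near 0 turned sign for Pecam1 (-0.05 to 0.03), Tek (-0.06 to 0.05), Kdr (-0.11 to 0.01), Tagln (-0.06 to 0.03), Myh11 (-0.05 to 0.04) and Notch3 (-0.07 to 0.06). Nos3, Acvrl1 and Notch3 gave no value with the floor at the 40th percentile, and neither did Kdr and Myh11 without probe sets ending in _s_at, _x_at or _a_at. The correlation of deviations between animals of the same number ran from -0.068 to 0.165. The exposed animal that best matched each control lay in the same number set, 1 to 3 or 4 to 6. The main fit had no term for these sets. When they were a term, 714 probe sets were higher and 247 lower, and Tgm2 passed (adjusted p = 0.00147 in limma). With the replicate block 359 probe sets were higher and 76 lower, against 610 and 186 without it. Under the block the adjusted p was 0.0826 for Nos3 and 0.0481 for Tgm2. Of the 20 calls in the other vascular and hypoxia lists 12 were lost. Over the other alternatives 428 to 714 probe sets were higher and 72 to 247 lower. The number of arrays and, for Nos3 and Notch3, signal close to the floor limit what can be seen.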
